A study of Homo sapiens with 12 samples.

Results

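The comparison set both degron lines of the study against both of its wild-type groups, in HCT116, a human line derived from a colorectal carcinoma. The 6 libraries of the POLR1A and POLR2A degron lines were averaged, and so were the 6 wild-type libraries, which took in all 12 libraries of the series by their column names. The comparison addresses what the degron lines have in common that actinomycin D, a drug that also blocks transcription, does not give. In the POLR1A-AID1 line, the largest subunit of RNA polymerase I bears an auxin-inducible degron. Its cells received doxycycline at 1 µg/ml for 24 h, which induces the plant receptor OsTIR1, and then IAA at 500 µM for 8 h. In the POLR2A-AID2 line the tag sits on the largest subunit of RNA polymerase II, and its ligand was 5-Ph-IAA at 1 µM for 8 h. The wild-type groups had DMSO for 8 h or actinomycin D at 5 µg/mL for 6 h, and the extraction text gives 6 h for the harvest. Each group had 3 libraries from separate dishes treated on a single day and described as technical, so p-values measure only the spread between dishes. No library of either line without ligand was analysed here. Genetic background of the line, inducer, ligand and depletion therefore cannot be told apart, and the number of degron lines is 2.

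A degron works by recruitment: the ligand joins the tagged protein to OsTIR1, which is part of an SCF ubiquitin ligase, and the proteasome then destroys the protein while its mRNA can persist. RNA polymerase I makes the large ribosomal RNA precursor in the nucleolus, and RNA polymerase II makes mRNAs and many non-coding RNAs. Impaired ribosome production is known to stabilise p53, because free ribosomal proteins bind MDM2, and HCT116 cells carry wild-type p53. Actinomycin D binds DNA and blocks elongation, so RNAs with short lives are lost first. Auxins and other indoles are known as ligands of the aryl hydrocarbon receptor (AhR), a transcription factor that switches on CYP1A1.

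Library totals ran from 11289094 to 27393969 estimated counts, and the POLR2A line was the shallowest group at 11289094 to 15037410. Despite this, that line had 37371 to 39193 genes with a count, against 30099 to 33149 in the other groups. Mitochondrial RNA took 3.51% to 3.65% of counts with actinomycin D and 5.62% to 10.48% elsewhere. The epithelial markers checked the cell type: 8 markers summed to 3500 to 3970 CPM (counts scaled to a common library size after TMM) with DMSO, 3200 to 3470 with actinomycin D, 1920 to 2060 in the POLR1A line and 2340 to 2550 in the POLR2A line. Most of that sum was KRT8 and KRT18, which were below DMSO in both lines, as were KRT19, CDH1 and CDX2. KRT19 (298 to 327 CPM) and CDX2 (1.83 to 2.47) were lower still with the drug, while KRT8, KRT18 and CDH1 were higher with the drug than in either line. EPCAM did not follow the sum, at 186 to 209 CPM with DMSO, 105 to 111 in the POLR1A line and 232 to 257 in the POLR2A line. LGALS4 had no count with DMSO, VIL1 stayed at or under 3.41 CPM, and both were highest in the POLR2A line. The 5 blood markers summed to at most 8.74 CPM in any library. A lower level in total RNA cannot be told apart from fewer cells of a type. The mRNAs of the tagged genes do not check a protein degron: POLR1A was lower in both lines (degron minus wild-type log2 fold change −0.60, SE 0.04) and POLR2A higher (0.87, SE 0.04).

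Of 23593 genes tested, 14396 (61.0%) differed between degron and wild-type libraries, 8159 (34.6%) higher and 6237 (26.4%) lower in the degron lines (edgeR quasi-likelihood test, Benjamini-Hochberg adjusted p under 0.05). With a fold of 2 or more as well, 4444 (18.8%) were higher and 737 (3.12%) lower. The share of calls that were higher was 56.7%, and it was 68.9% with scaling to library totals and 29.1% with scaling to 13 mitochondrial mRNAs. The median over all genes moved with it, from 0.13 to 0.27 and −0.29, so small differences depend on the scaling. With TMM the drug lowered all 13 mitochondrial mRNAs (median −1.63), beside medians of −0.222 and 0.255 in the POLR1A and POLR2A lines. The mitochondrial reference thus itself moved with the drug, relative to other genes. With a design of only 6 against 6 libraries, in which the spread between lines and between drug and DMSO counts as error, 3512 genes were called higher and 2219 lower.

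The average of the wild-type groups contains the drug's own effect, and MYC shows how. MYC, the growth-promoting transcription factor with a short-lived mRNA, stood at 662, 783 and 759 CPM with DMSO, 10.5, 12.7 and 12.4 with actinomycin D, 135, 132 and 151 in the POLR1A line and 90.4, 75.2 and 79.2 in the POLR2A line. Both lines thus lay between the wild-type groups, and the averaged contrast read 0.19 (SE 0.06) although both lines were below DMSO. That call was lost without DMSO replicate 1 (0.14), actinomycin D replicate 1 (0.14), POLR1A-line replicate 3 (0.15) or POLR2A-line replicate 1 (0.14). MYC was chosen for this purpose after its values were seen.

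A stricter set was therefore used. A gene is called separated where it passed the test with a fold of 2 or more and all 6 degron libraries lay beyond all 6 wild-type libraries. This held for 1165 genes (4.94%), 812 higher (3.44%) and 353 lower (1.5%). Actinomycin D against DMSO raised 24.9% and lowered 28.5% of all genes tested. Among the 812 higher genes, the drug lowered 279, raised 61 and left 472 without a call. The 353 lower genes split into 79 lowered, 137 raised and 137 without a call. Leaving out genes that the drug moved the same way left 751 higher (3.18%) and 274 lower (1.16%).

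The separated set still held genes carried by the drug. In 104 of the 812 and 35 of the 353, both lines were within 2-fold of DMSO. KLF10, a TGF-beta-responsive factor, is 1 of them: it rose by 0.53 (SE 0.06) and 0.30 (SE 0.06) against DMSO in the POLR1A and POLR2A lines, fell by 3.71 with the drug, and read 2.27 in the averaged contrast. A definition added after seeing the data asked for a fold of 2 or more between each line and each wild-type group, which are 4 comparisons. It left 407 higher genes (1.73%) and 100 lower genes (0.424%), and 308 of the 407 and 56 of the 100 had no drug call. The lower count was 172 with mitochondrial scaling and 157 with no filter on low counts.

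**Figure D1:**
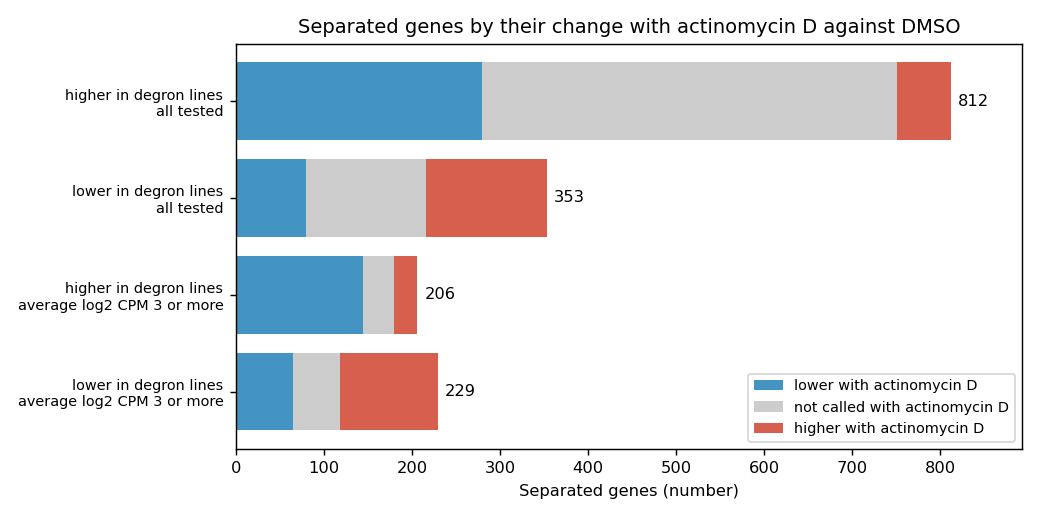
Number of separated genes, higher or lower in the degron lines, by their call with actinomycin D against DMSO, for all genes tested and well-expressed genes. Well-expressed genes had an average level over all libraries of at least 3 as log2 CPM. Among well-expressed higher genes the drug lowered 144 of 206, and among well-expressed lower genes it raised 111 of 229.

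Much of the higher set was weakly expressed. Here well expressed means an average level of at least 3 as log2 CPM, taken from the mean level of all 12 libraries. A gene can pass this limit only through the groups where it is high. At this level 206 of 10707 genes were separated higher and 229 lower, and 49 and 46 met the 2-fold rule against every group. Over all levels the POLR1A and POLR2A lines differed in 480 of the 812 higher genes, with the POLR2A line above in 387 of them. At the higher level the lines differed in 143 of 206, with the POLR2A line above in 76 and the POLR1A line in 67. For reference, 62.2% of all genes tested differed between the lines.

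Among well-expressed protein-coding genes that the drug did not move, the highest were NRP1, LVRN, INKA2, FAS, BTBD19, ADAMTSL4, TEX14, DNAJB5, COL7A1 and ADAM32, with log2 fold changes of 3.36 down to 1.87. Some of them, such as NRP1, DNAJB5 and TEX14, passed the level limit only through degron libraries where they were high. Rank and limit rest on the same values reported here, so the list is a description. NRP1 (chr10:33177492-33336262, GRCh38), a co-receptor for semaphorins and VEGF, stood at 1.87, 1.74 and 1.52 CPM with DMSO, 1.29, 1.67 and 1.65 with actinomycin D, 17.4, 16.8 and 16.9 in the POLR1A line and 14.4, 16.2 and 19.1 in the POLR2A line. It was 10.3-fold higher in the degron lines (log2 3.36, SE 0.11, edgeR adjusted p = 5.05e-16). The wild-type groups overlapped, the degron groups overlapped, and nothing lay between them: the drug change was −0.13 (SE 0.20) and the line difference 0.04 (SE 0.13).

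FAS (chr10:88990582-89015785), the death receptor and a p53 target, stood at 14.3, 16.6 and 13.8 CPM with DMSO and 12.1, 14 and 14.5 with actinomycin D. It reached 99.4, 102 and 97.4 CPM in the POLR1A line and 80.2, 90.4 and 88.2 in the POLR2A line, 6.50-fold above wild type (log2 2.70, SE 0.06). The drug change was −0.14 (SE 0.09), and the lines differed by 0.21 (SE 0.07). DNAJB5, a co-chaperone of HSP70, had 2.81, 3.30 and 3.91 CPM with DMSO, 2.32, 3.15 and 2.63 with the drug, 11.6, 12.3 and 11.1 in the POLR1A line and 14.7, 18.7 and 15.4 in the POLR2A line. Its wild-type groups overlapped, and both lines were above them by 2.18 (SE 0.11).

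BTBD19, which encodes a BTB-domain protein, showed nearly level lines, at 15.5, 13.6 and 18.7 CPM in the POLR1A line and 19.4, 17.5 and 18.2 in the POLR2A line. Its DMSO libraries held 3.04, 3.96 and 2.86 CPM and its drug libraries 3.29, 4.42 and 3.57 (degron minus wild-type 2.27, SE 0.11). INKA2, an inhibitor of the kinase PAK4, was 8.71-fold higher, with 18.4 to 20.9 CPM in the POLR1A line, 11.9 to 14.1 in the POLR2A line and at most 2.94 in any wild-type library.

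Other genes of the same rank were not equally shared. TEX14, a protein of germ-cell bridges, stood at 29.3, 33.2 and 30.9 CPM in the POLR2A line, but at 3.01, 2.59 and 2.95 in the POLR1A line, against 2.58, 1.08 and 2.22 with DMSO and 1.4, 2.51 and 2.40 with the drug. Its change in the POLR1A line against DMSO did not pass (0.56, SE 0.25), and without the POLR2A group the contrast was 0.45 and not called. ADAMTSL4, an extracellular matrix protein, had 31.0 to 33.9 CPM in the POLR2A line and 3.41 to 4.47 in the POLR1A line, where the wild-type range was 1.72 to 3.34. LVRN, an aminopeptidase, and COL7A1, the collagen of anchoring fibrils, were also higher in the POLR2A line than in the POLR1A line, by 2.70 and 1.65 on the log2 scale.

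**Figure D2:**
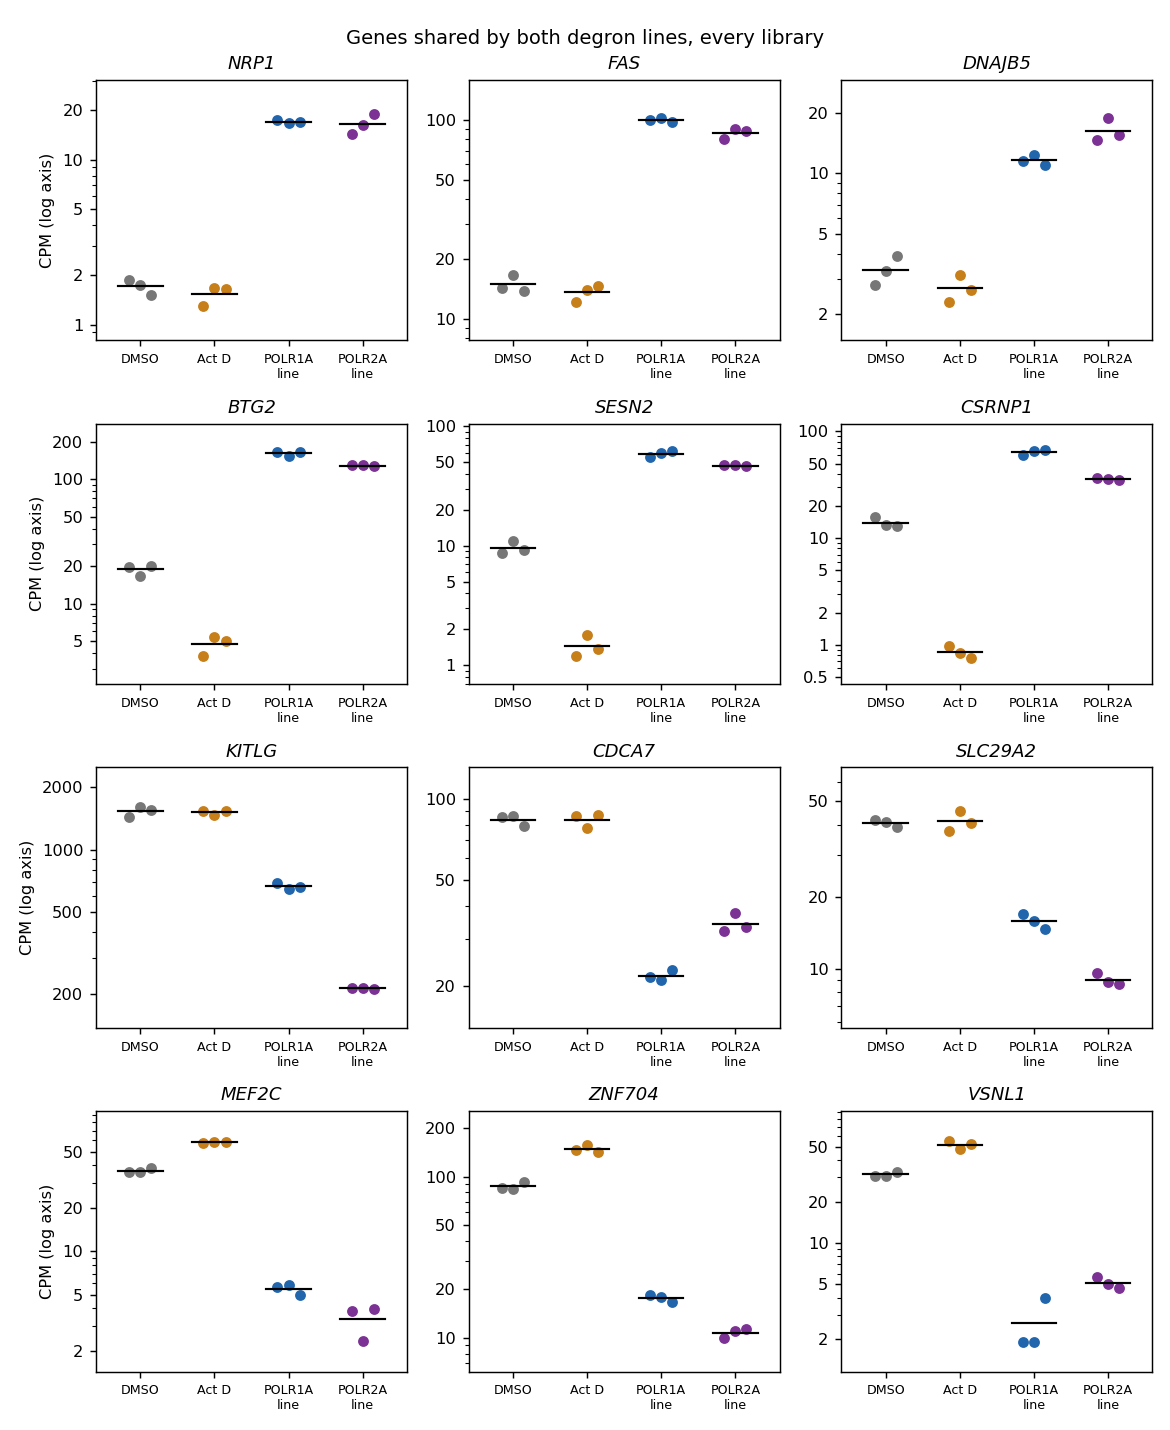
Level of 12 genes in every library, as CPM on a log axis, with points for libraries and a line at the mean of 3. Both degron lines lie above DMSO and actinomycin D for 6 genes, as NRP1 at 14.4 to 19.1 CPM against 1.29 to 1.87, and under them for the other 6, as KITLG at 213 to 693 CPM against 1433 to 1612.

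Other well-expressed separated genes were raised in the lines and lowered by the drug, among them BTG2, CSRNP1, SESN2, ZNF703, ATF3 and SERTAD3. BTG2, an antiproliferative p53 target, read 19.8, 16.7 and 20.3 CPM with DMSO, 3.83, 5.41 and 5.03 with the drug, 164, 154 and 165 in the POLR1A line and 130, 129 and 127 in the POLR2A line (contrast 3.92, SE 0.06). SESN2, a sestrin induced by p53 and ATF4, read 8.66, 11 and 9.11 with DMSO, 1.19, 1.79 and 1.36 with the drug, 54.7, 59.4 and 61.6 in the POLR1A line and 46.9, 46.9 and 46.0 in the POLR2A line. For both genes the 3 ranges of DMSO, drug and degron lines were apart, and the smaller of the lines' changes against DMSO was 2.77 for BTG2 and 2.27 for SESN2.

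CSRNP1, a nuclear protein of the immediate early class, fell from 15.6, 13.2 and 13.1 CPM with DMSO to 0.97, 0.836 and 0.752 with the drug. It stood at 60.1, 65.3 and 67.6 CPM in the POLR1A line and 36.5, 36.2 and 35.1 in the POLR2A line. SERTAD3, a transcriptional coregulator, illustrates the weaker end: its contrast was 2.71 (SE 0.12), while the POLR2A line exceeded DMSO by only 0.60 (SE 0.15) beside a drug change of −3.33. ATF3, a stress-induced factor, was higher in the POLR2A line (44.3 to 55.5 CPM) than in the POLR1A line (23.2 to 28.9) and above DMSO in both (10.3 to 10.8).

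Of 30 p53 target genes, all were tested, 30 were higher and 0 lower, and 16 were separated, against 34.6%, 26.4% and 3.44% over all genes. Their median was 1.27 beside 0.13 for all genes, 1.41 with library totals and 0.84 with mitochondrial scaling. The drug raised 12 and lowered 14 of them, with a median of −0.07. In the POLR1A line 28 were above DMSO (all genes 20.6% higher, 18.6% lower), and in the POLR2A line 24 were above and 2 below (all genes 33.2% higher, 28.2% lower). Of these 30 genes, 7 met the 2-fold rule against every wild-type group.

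Members differed in how evenly the lines carried them. TIGAR, a regulator of glycolysis, rose by 1.82 and 1.75 in the POLR1A and POLR2A lines with a drug change of 0.02, and TP53INP1, an autophagy and death factor, by 2.57 and 2.0 with 0.24. CDKN1A, the p21 cell-cycle inhibitor, differed by 1.96 (SE 0.06) between the lines, at 833, 830 and 843 CPM in the POLR1A line and 215, 213 and 218 in the POLR2A line, above 109, 100 and 113 with the drug and 74.7, 86.6 and 77.1 with DMSO. MDM2, the ubiquitin ligase of p53, was not separated: it had 880, 793 and 850 CPM in the POLR1A line, but 215, 216 and 224 in the POLR2A line beside 205, 204 and 219 with DMSO. PLK2 had a contrast of 1.84 with changes of only 0.10 and −0.45 in the lines, beside a drug change of −4.02.

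The same arithmetic shaped the list of 44 immediate early and short-lived genes. In it 38 were higher and 5 lower (all genes 34.6% and 26.4%), with 6 separated higher (CCN2, NR4A3, KLF10, BTG2, ATF3, EGR3) and 1 separated lower (SOX4). The contrast's median was 1.11, while the medians against DMSO were 0.29 in the POLR1A line, −0.54 in the POLR2A line and −2.58 with the drug. EGR3, a zinc-finger factor, was above DMSO in both lines, by 2.07 (SE 0.12) and 0.67 (SE 0.12). CCN2, a matricellular growth factor, rose by 1.35 (SE 0.15) and 1.08 (SE 0.15). SOX4, a developmental transcription factor, fell in all treated groups, to 46.9 to 49.7 CPM in the POLR1A line, 9.95 to 12.7 in the POLR2A line and 75.6 to 79.7 with the drug, from 246 to 273.

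Among non-coding genes not moved the same way by the drug, the highest were MIR31HG, MIRLET7IHG, MTND2P28 and MCPH1-AS1. MIR31HG, the host gene of miR-31, had 7.18, 3.00 and 4.50 CPM with DMSO, 2.53, 2.23 and 2.58 with the drug, 11.9, 12.4 and 11.3 in the POLR1A line and 48.9, 49.3 and 50.8 in the POLR2A line. Both lines were above both wild-type groups, and the POLR2A line was above the POLR1A line by 2.06 (SE 0.15). MCPH1-AS1 rose by 1.26 (SE 0.15) and 1.80 (SE 0.15) and fell by 1.74 with the drug, and as an antisense gene it is uncertain without a stated strand setting. MTND2P28 is a nuclear copy of a mitochondrial gene whose reads can be shared with it. It fell by 3.79 with the drug, the group with the smallest share of mitochondrial RNA, and its call was lost in the 6-against-6 design (1.47).

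The lowest were LINC02331, RNU1-67P, DDX12B and VPS9D1-AS1. LINC02331 (chr14:53768942-53850882), a lincRNA, had 17.4, 14.7 and 17.9 CPM with DMSO, 22.3, 22.6 and 20.5 with the drug, 6.54, 5.32 and 5.39 in the POLR1A line and 1.47, 1.24 and 1.91 in the POLR2A line. The drug raised it by 0.39 (SE 0.12) and the degron lines were lower by 2.69 (SE 0.10). VPS9D1-AS1, which is antisense and uncertain for that reason, had 57.4 to 71.1 CPM with DMSO, 60.8 to 64.1 with the drug, 22.1 to 23.9 in the POLR1A line and 38.8 to 43.8 in the POLR2A line. RNU1-67P and DDX12B are copies of other genes and share reads with them.

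**Figure D3:**
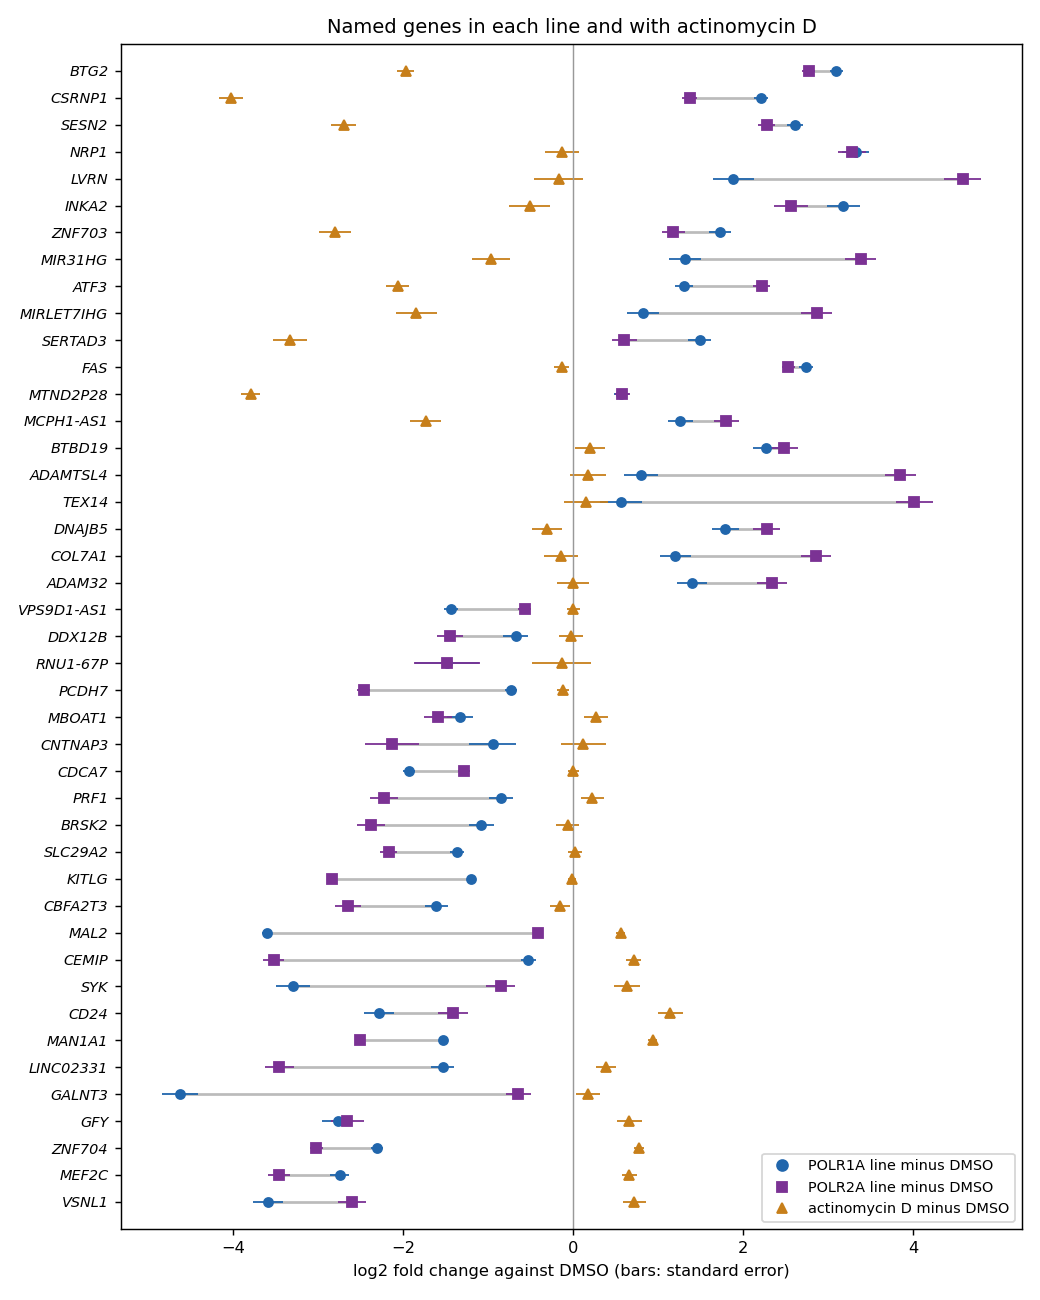
Log2 fold change against DMSO, with standard error bars, in the POLR1A line (circles), the POLR2A line (squares) and with actinomycin D (triangles) for the 43 genes taken by rank, ordered by the degron minus wild-type contrast. NRP1 (3.32 and 3.27) has overlapping line values, while GALNT3 (−4.63 and −0.64) and TEX14 (0.56 and 4.01) have distant ones.

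In the opposite direction, the genes that fell in both lines and did not move with the drug were led by GALNT3, CBFA2T3, KITLG, SLC29A2, BRSK2, PRF1, CDCA7, CNTNAP3, MBOAT1 and PCDH7 (−2.72 to −1.54). KITLG (chr12:88492793-88580851), the ligand of the receptor KIT and an abundant mRNA here, stood at 1433, 1612 and 1561 CPM with DMSO, 1545, 1476 and 1534 with the drug, 693, 646 and 663 in the POLR1A line and 215, 214 and 213 in the POLR2A line. It was 4.04-fold lower in the degron lines (log2 −2.01, SE 0.04, edgeR adjusted p = 3.7e-20), with overlapping wild-type groups. The lines themselves were apart by 1.64 (SE 0.05).

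CDCA7, a chromatin protein of proliferating cells, had 85.7, 86.1 and 79.2 CPM with DMSO, 86.2, 77.9 and 87.2 with the drug, 21.7, 21.0 and 23 in the POLR1A line and 32.0, 37.4 and 33.4 in the POLR2A line (−1.61, SE 0.05). SLC29A2, a nucleoside transporter, had 41.8, 41.2 and 39.1 CPM with DMSO, 37.7, 45.5 and 40.5 with the drug, 16.9, 15.8 and 14.6 in the POLR1A line and 9.58, 8.82 and 8.62 in the POLR2A line (−1.78, SE 0.06). In both genes DMSO and drug libraries overlapped and each line was more than 2-fold lower. MBOAT1, a lysophospholipid acyltransferase, was the member with the closest lines (0.27, SE 0.17), at −1.33 and −1.60 against DMSO. GALNT3, which starts mucin-type glycosylation, was lower in the POLR2A line by only 0.64 (SE 0.15), and its call was lost in the 6-against-6 design (−1.66).

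Another group fell in both lines and rose with the drug. VSNL1, a neuronal calcium sensor, went from 30.9, 30.9 and 32.7 CPM with DMSO to 54.8, 48.0 and 52.9 with the drug, 1.92, 1.92 and 3.96 in the POLR1A line and 5.70, 5.04 and 4.73 in the POLR2A line. MEF2C, a MADS-box transcription factor, read 35.8, 35.8 and 38.4 with DMSO, 57.3, 58.2 and 58.1 with the drug, 5.60, 5.85 and 4.93 in the POLR1A line and 3.82, 2.37 and 3.98 in the POLR2A line. ZNF704, a zinc-finger factor, read 84.6, 84.5 and 92.9 with DMSO, 147, 158 and 142 with the drug, 18.4, 18.0 and 16.6 in the POLR1A line and 9.92, 11 and 11.4 in the POLR2A line. In each of the 3 genes the degron libraries lay below DMSO and the drug libraries above it, and the smaller fall among the lines was 2.31 or more on the log2 scale.

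MAN1A1, a Golgi mannosidase, fell by 1.53 (SE 0.05) and 2.51 (SE 0.05) in the POLR1A and POLR2A lines and rose by 0.93 with the drug. GFY, a Golgi protein named for olfactory signalling, fell by 2.77 and 2.66, with no line difference that passed (−0.12, SE 0.23). CD24, a cell-surface sialoglycoprotein, fell by 2.28 and 1.42 and rose by 1.14 with the drug. CEMIP, a hyaluronan-binding protein, fell by 0.53 in the POLR1A line and 3.52 in the POLR2A line, and SYK, a tyrosine kinase, by 3.30 and 0.85. Small rises with the drug turn on the scaling, since the drug's median over all genes was −0.06 with TMM and 0.82 with mitochondrial scaling. With TMM all 13 mitochondrial mRNAs of that scaling were lower with the drug (median −1.63).

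Epithelial genes were mostly lower. Of 31 tested of 36, 21 were lower and 5 higher, with 6 separated lower, 1 separated higher (ELF3) and a median of −0.67. Over all genes 26.4% were lower, 34.6% higher and 1.5% separated lower. The list's medians against DMSO were −0.68 in the POLR1A line, −0.23 in the POLR2A line and 0.06 with the drug. The 6 were CDH1, EHF, ESRP1, KRT18, MAL2 and S100A14. KRT18, a keratin of simple epithelia, had 939, 1146 and 1029 CPM with DMSO, 710, 687 and 756 with the drug, 428, 443 and 459 in the POLR1A line and 435, 368 and 433 in the POLR2A line. The 2 lines overlapped (0.11, SE 0.07), both below the drug, which itself was below DMSO. KRT18 overlaps KRT8 in the annotation, so reads of the shared stretch are uncertain.

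CDH1, which encodes E-cadherin, had 81.3, 93.4 and 82.8 CPM with DMSO, 114, 119 and 124 with the drug, 27.9, 24.2 and 22.7 in the POLR1A line and 67.0, 65.5 and 71.7 in the POLR2A line. Its fall was thus mainly in the POLR1A line, −1.79 (SE 0.07) against −0.34 (SE 0.07), a difference of −1.45 (SE 0.08). EHF, an epithelial ETS factor, fell by 1.58 and 0.81. MAL2, a protein of apical transport, fell by 3.6 and 0.42, and its call was lost in the 6-against-6 design (−1.58). ELF3, another ETS factor, was 20.7 to 26.5 CPM in the lines and 16.6 to 18.9 with DMSO, and its contrast of 1.22 stands beside 4.98 to 5.97 CPM with the drug.

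Of 13 mesenchymal genes tested of 19, 8 were higher and 4 lower (all genes 34.6% and 26.4%), and 3 were separated higher. Their medians against DMSO were 0.47 in the POLR1A line, 0.92 in the POLR2A line and −0.32 with the drug. ZEB1, a repressor of CDH1, had 3.59, 4.14 and 4.50 CPM with DMSO, 2.80, 5.14 and 3.15 with the drug, 21.9, 19.9 and 22.4 in the POLR1A line and 7.44, 5.92 and 9.29 in the POLR2A line. Both lines were above wild type, and the POLR1A line was above the POLR2A line by 1.52 (SE 0.18). SNAI2, another such repressor, reached 0.268 to 0.778 CPM in the degron libraries and at most 0.162 in wild type. ACTA2, smooth-muscle actin, was 10.9 to 17.3 CPM in the lines and 3.83 to 6.77 in wild type, but its annotation overlaps that of FAS at their starts, so reads of that stretch are uncertain for both genes. Summed over 5 mesenchymal markers, levels were 10.8 to 11.6 CPM with DMSO, 13.3 to 15.1 with the drug, 27.1 to 28.9 in the POLR1A line and 17.2 to 20.0 in the POLR2A line. Most of that sum was COL1A1, at 7.0 to 7.93 CPM with DMSO, 21.1 to 22.7 in the POLR1A line and 11.7 to 16.6 in the POLR2A line. VIM was also higher in both lines, and COL3A1 only in the POLR2A line. THY1 went the other way, from 2.18 to 2.68 CPM with DMSO to 0.207 to 0.847 in the POLR1A line and 0.33 to 1.07 in the POLR2A line. PDGFRB stayed at or under 0.398 CPM.

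Genes of the sterol response were lower in 17 of 23 and higher in 2 (all genes 26.4% and 34.6%), with a median of −0.57. Against DMSO the medians were −0.35 in the POLR1A line, −0.58 in the POLR2A line and 0.25 with the drug. INSIG1, which holds back the sterol sensor, had 32.4, 39.4 and 32.6 CPM with DMSO, 14.8, 13.8 and 16.4 with the drug, 9.18, 8.00 and 8.57 in the POLR1A line and 6.97, 7.17 and 7.46 in the POLR2A line. All 3 treated groups were below DMSO, and each line lay below the drug by at least 0.81. SQLE, squalene epoxidase, fell by 1.5 and 2.5 in the lines and by 0.95 with the drug, DHCR7, the last enzyme of cholesterol synthesis, by 0.94 and 1.36 with a drug rise of 0.30, and HMGCS1, an early enzyme, by 0.92 and 1.4 with a drug fall of 0.27.

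Genes of DNA replication and ribosome production were lower by small amounts, beside all-gene shares of 26.4% lower and 34.6% higher. Of 25 genes of G1/S and replication, 23 were lower, 0 higher and 0 separated (median −0.42; −0.70 in the POLR1A line, −0.25 in the POLR2A line and 0.18 with the drug). For 25 genes of G2/M the counts were 15 lower and 3 higher (median −0.15, and −0.01 with library totals), but the lines differed: against DMSO the POLR1A line had 10 higher and 5 lower (median 0.07) and the POLR2A line 3 higher and 18 lower (−0.45). Of 40 ribosome biogenesis genes, 37 were lower and 2 higher (median −0.62), and 1 was separated. Their medians against DMSO were −0.78 in the POLR1A line, −0.70 in the POLR2A line and −0.31 with the drug. That gene, WDR3, a factor of small-subunit assembly, had 172, 210 and 194 CPM with DMSO, 139, 140 and 141 with the drug, 79.6, 74.8 and 73.1 in the POLR1A line and 76.3, 70.1 and 74.4 in the POLR2A line. The lines overlapped in WDR3 and lay below both wild-type groups (−1.14, SE 0.04).

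The polymerases' own genes had no separated member, and their counts stand beside all-gene shares of 26.4% lower and 34.6% higher. Lower and higher counts were 10 and 2 of 15 for Pol I, 9 and 1 of 13 for Pol II, and 12 and 3 of 22 for Pol III, with medians of −0.27, −0.15 and −0.14. With library totals the Pol II and Pol III medians were 0.00. The drug lowered 12 of the 15 Pol I genes and raised 0 (median −0.561). Their medians against DMSO were −0.635 in the POLR1A line and −0.595 in the POLR2A line. Of the 22 Pol III genes the drug lowered 14 and raised 6 (median −0.563), beside −0.128 and −0.6 in the lines. The Pol II counts stand beside a drug that raised 11 of the 13 (median 0.45): against DMSO the POLR1A line had 3 higher and 4 lower (median −0.07) and the POLR2A line 5 higher and 2 lower (0.16). Of 22 snoRNA host genes, whose introns encode guides of rRNA modification, 15 were lower and 2 higher. The drug lowered 14 of them and raised 4 (median −0.684), beside −0.796 and −0.774 in the POLR1A and POLR2A lines. SNHG1, a host gene, stood at 145 to 146 CPM in the POLR1A line beside 146 to 152 with the drug and 53.2 to 56.4 in the POLR2A line, so the POLR1A line and the drug differed there by only 0.03. EPB41L4A-AS1 was 9.38 to 11.1 CPM in the lines, 12.4 to 15.4 with the drug and 35.7 to 38.7 with DMSO.

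**Figure D4:**
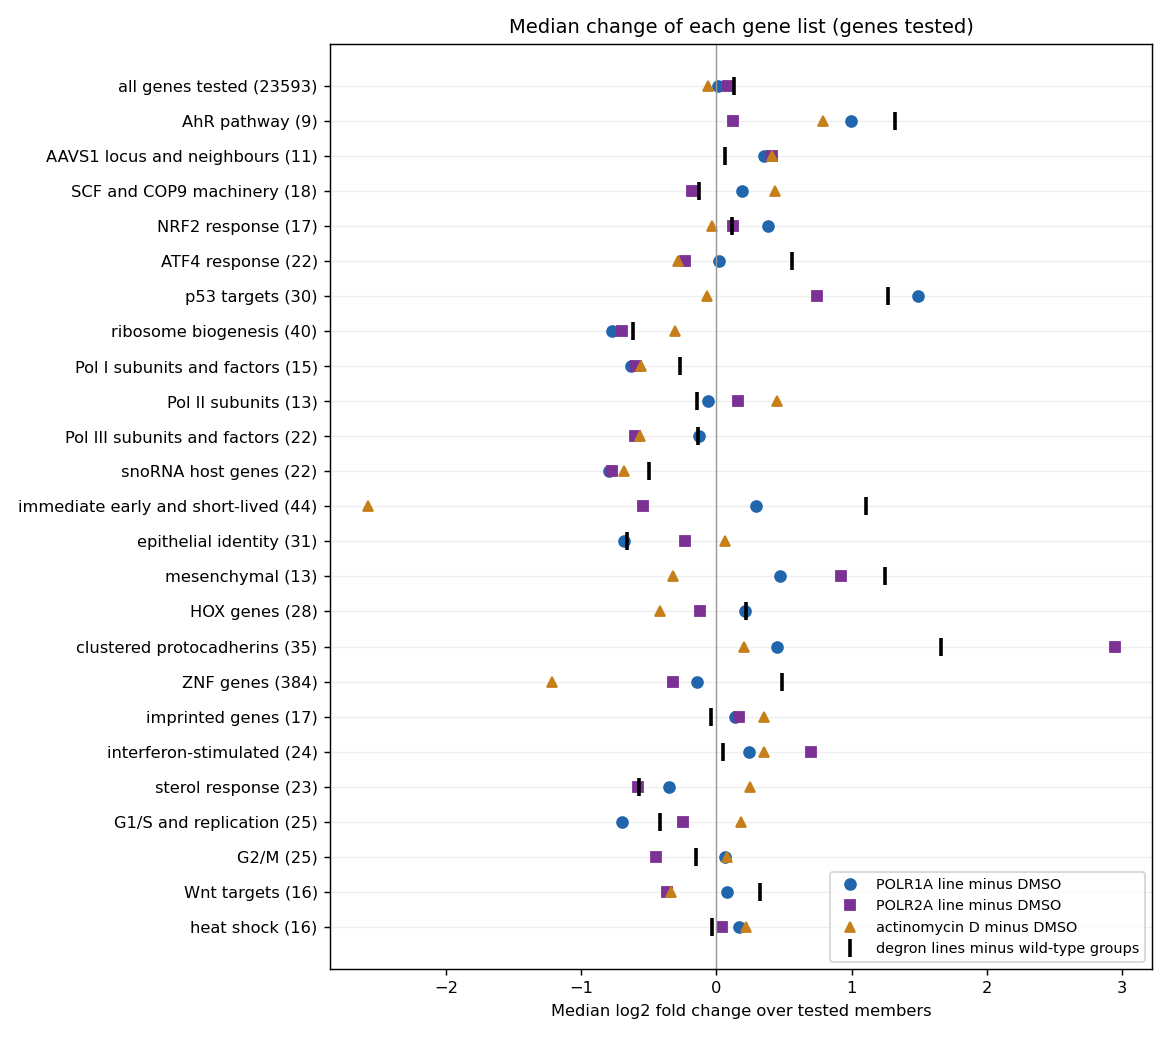
Median log2 fold change of each gene list over its tested members (number in brackets), for each line and the drug against DMSO and for the degron minus wild-type contrast. The p53 list has 1.49 and 0.75 in the POLR1A and POLR2A lines beside −0.07 with the drug, whereas the contrast of 1.11 for immediate early genes stands beside a drug median of −2.58.

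Ligand effects were looked for first among AhR genes, since both ligands are indoles. Of 9 tested of 11, 5 were higher and 3 lower (all genes 34.6% and 26.4%), and 1 was separated, CYP1A1. CYP1A1 (chr15:74719542-74725610), the cytochrome P450 most used as a readout of AhR, had 0.625, 0.659 and 0.934 CPM with DMSO, 1.24, 1.79 and 1.65 with the drug, 7.83, 6.61 and 7.42 in the POLR1A line and 2.48, 2.07 and 2.32 in the POLR2A line. All groups were apart, with the POLR1A line above the POLR2A line by 1.67 (SE 0.23). The POLR2A line exceeded the drug by only 0.54 on the log2 scale, and the drug itself exceeded DMSO by 1.06 (SE 0.28).

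CYP1B1, AHRR and TIPARP did not move alike in the lines. CYP1B1, a second P450 of the pathway, had 24.0, 24.5 and 20.6 CPM in the POLR1A line, but 5.29, 4.62 and 3.81 in the POLR2A line, where it did not pass against DMSO (2.97, 4.44 and 2.92). AHRR, the repressor of AhR, had 38.6, 44.7 and 44.6 CPM in the POLR1A line, 9.99, 10.5 and 12.5 in the POLR2A line, 17.0, 21.8 and 18.8 with DMSO and 10.2, 13.1 and 8.13 with the drug. TIPARP, an ADP-ribosyltransferase that limits AhR, had 225, 202 and 212 CPM in the POLR1A line, 86.4, 76.0 and 79.4 in the POLR2A line, 101, 102 and 108 with DMSO and 10.4, 13.4 and 11.2 with the drug. AHRR and TIPARP were thus above DMSO in the POLR1A line (1.15 and 1.04) and below it in the POLR2A line (−0.82 and −0.36).

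ARNT, the partner of AhR, was 62.4 to 73.2 CPM in the POLR1A line and 24.1 to 25.3 in the POLR2A line, a difference of 1.47 (SE 0.08). Its contrast of −0.13 lost its call without DMSO replicate 2 (−0.12), actinomycin D replicate 2 (−0.13), POLR1A-line replicate 2 (−0.11) or POLR2A-line replicate 1 (−0.14). AHR itself changed by 0.01 (SE 0.06) in the POLR1A line and −0.43 (SE 0.07) in the POLR2A line. NQO1, shared with the NRF2 response, was lower in the contrast (−0.61), beside changes of −0.41 (SE 0.05) in the POLR1A line, 0.12 (SE 0.05, not called) in the POLR2A line and 0.94 with the drug. ALDH3A1, an aldehyde dehydrogenase, was called higher (1.32, SE 0.30), at 2.61, 2.90 and 1.49 CPM in the POLR2A line but 0.571, 0.759 and 1.06 in the POLR1A line, which did not pass against DMSO (0.39, 0.30 and 0.526) and overlapped the drug (0.863, 0.637 and 0.705). UGT1A6, a glucuronosyltransferase, had no count in any POLR1A-line or DMSO library and 0.536, 1.07 and 0.995 CPM in the POLR2A line, and its contrast was not called. In the 6-against-6 design, whose error is wider, the calls were lost for AHRR (0.86, from 0.60), AHR (−0.13, from −0.15), TIPARP (1.35, from 1.91) and ARNT, whose contrast was near 0. The ligands differed in compound and dose, 500 µM IAA against 1 µM 5-Ph-IAA, and only the POLR1A line had doxycycline, so line values stand side by side with no comparison of ligands.

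The promoters of the separated CYP1A1 and of TIPARP are shown because AhR binds the core GCGTG, which is in capitals here on either strand (reversed, CACGC). Both run from 250 bases before to 50 after the RefSeq start on GRCh38.p14, CYP1A1 on the minus strand at chr15:74725479-74725778 and TIPARP on the plus strand at chr3:156674340-156674639.
CYP1A1: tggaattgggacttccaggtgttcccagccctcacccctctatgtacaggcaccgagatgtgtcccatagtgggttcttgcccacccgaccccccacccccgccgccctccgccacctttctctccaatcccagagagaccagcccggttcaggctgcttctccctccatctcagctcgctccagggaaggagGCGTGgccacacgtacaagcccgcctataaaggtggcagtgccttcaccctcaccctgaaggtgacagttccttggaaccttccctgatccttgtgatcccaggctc
TIPARP: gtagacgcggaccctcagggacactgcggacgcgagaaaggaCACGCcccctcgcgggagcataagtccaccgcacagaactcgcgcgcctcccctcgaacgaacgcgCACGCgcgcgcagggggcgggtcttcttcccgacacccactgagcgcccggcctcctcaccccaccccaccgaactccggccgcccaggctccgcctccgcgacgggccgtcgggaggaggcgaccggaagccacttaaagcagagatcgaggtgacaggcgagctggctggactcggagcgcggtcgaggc

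The CYP1A1 window held 1 match, which begins at −57 from the start, and the TIPARP window held 2, at −208 and −142. Such a match is common: it occurred in 36.3% of all 27305 promoters and in 52.8% of those of well-expressed protein-coding genes, beside 46.7% of the separated higher and 45.6% of the separated lower ones. The match is a description of the letters only.

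**Figure D5:**
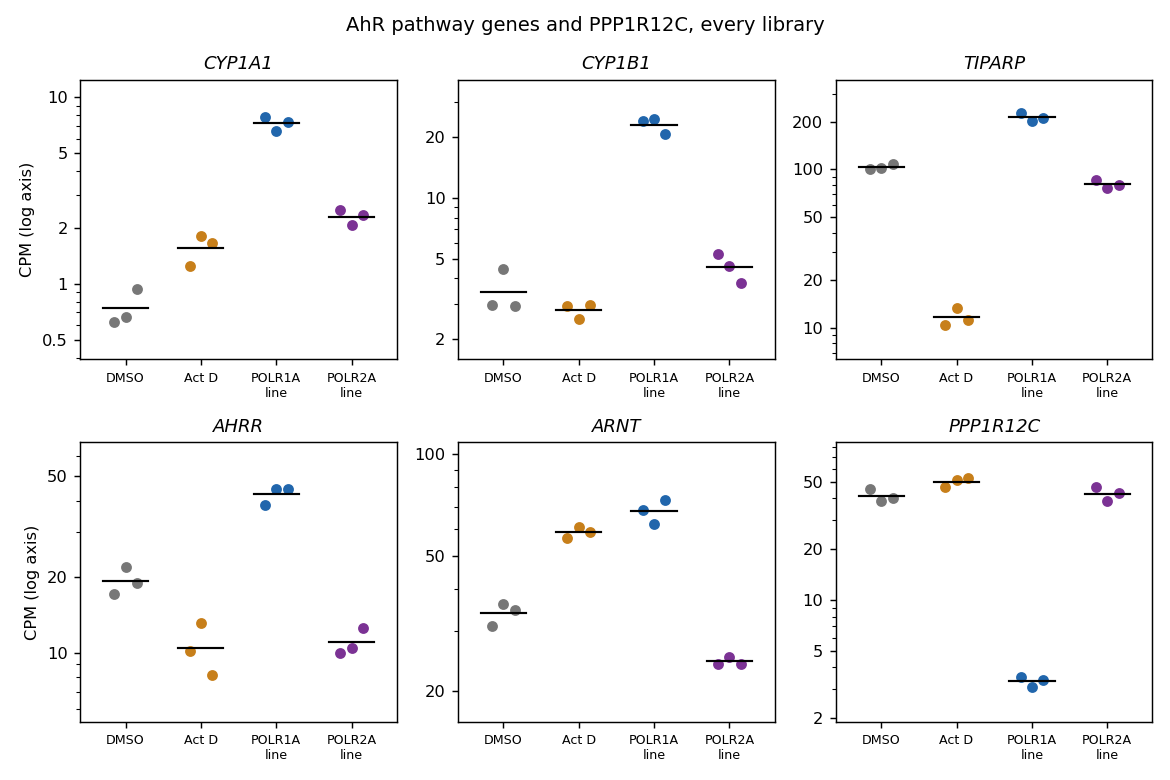
Level of 5 AhR pathway genes and PPP1R12C in every library, as CPM on a log axis, with points for libraries and a line at the mean of 3. The POLR1A line is the highest group for CYP1A1 (6.61 to 7.83 CPM) and the lowest for PPP1R12C (3.08 to 3.53 CPM).

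Line effects were looked for at AAVS1, the safe-harbour site in PPP1R12C on chromosome 19 where transgenes are often placed; the labels used here do not say where OsTIR1 sits. PPP1R12C, a myosin phosphatase subunit, had 45.7, 38.5 and 40.5 CPM with DMSO, 46.7, 51.2 and 53.1 with the drug, 46.9, 38.4 and 42.8 in the POLR2A line and 3.53, 3.08 and 3.36 in the POLR1A line. It fell by 3.64 (SE 0.11) in the POLR1A line and changed by 0.04 (SE 0.08) in the POLR2A line, a line difference of −3.68 (SE 0.11). Its contrast of −1.94 therefore came from 1 line, and it was not called without the POLR1A group (−0.09) or in the 6-against-6 design (−1.0).

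The neighbours of that site moved less. Of 11 genes tested there, PPP1R12C included, 3 were higher and 4 lower (all genes 34.6% and 26.4%), and 0 were separated. PPP1R12C was 1 of the 4. These counts stand beside a drug that raised 9 of the 11 and lowered 0 (median 0.409). Against DMSO the POLR1A line had 5 higher and 1 lower (median 0.355) and the POLR2A line 5 higher and 3 lower (0.409). EPS8L1, an actin-regulating adaptor, was 14.4 to 19.2 CPM in the lines and 9.41 to 13 in wild type (0.64, SE 0.08), and its call was lost with mitochondrial scaling (0.21). PTPRH, a receptor tyrosine phosphatase, was 8.38 to 12.7 CPM in the lines and 4.68 to 7.24 in wild type (0.87, SE 0.10).

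Genes that serve the degron machinery and general stress showed few shared changes. Of 18 genes of SCF ligases and the COP9 signalosome, 8 were lower, 0 higher and 0 separated (all genes 26.4% lower, 34.6% higher). Their median was −0.13, and 0.01 with library totals. These counts stand beside a drug that raised 14 of the 18 (median 0.43). Against DMSO the POLR1A line had 9 higher and 3 lower (median 0.19) and the POLR2A line 3 higher and 9 lower (−0.18). NRF2 genes had 8 higher and 3 lower of 17. Their separated member, AKR1B10, an aldo-keto reductase, was 0.415 to 1.01 CPM in the lines and at most 0.216 in wild type. The NRF2 median of 0.12 was −0.31 with mitochondrial scaling.

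ATF4 genes had 12 higher and 8 lower of 22 (all genes 34.6% and 26.4%), with 2 separated in each direction. ATF3 and SESN2 were higher, while ATF4 and ASNS were lower. The list's contrast median was 0.558, while medians against DMSO were 0.0171 in the POLR1A line, −0.232 in the POLR2A line and −0.282 with the drug. Against DMSO the POLR1A line had 9 higher and 8 lower, the POLR2A line 7 and 12, and the drug 9 and 11. ATF4, the factor that gives the list its name, had 221, 233 and 251 CPM with DMSO, 283, 269 and 290 with the drug, 147, 153 and 161 in the POLR1A line and 59.4, 59.8 and 52.7 in the POLR2A line. ASNS, asparagine synthetase and an ATF4 target, was 50.2 to 56.2 CPM in the POLR1A line, 44.4 to 45.5 in the POLR2A line, 83.8 to 104 with DMSO and 165 to 167 with the drug. Of 16 heat shock genes 5 were higher and 5 lower, and DNAJB4, a co-chaperone, was separated (1.36, SE 0.06), at 71.2 to 79.7 CPM in the POLR1A line, 40.0 to 42.2 in the POLR2A line and 15.9 to 26.0 in wild type.

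A line can also carry its own silencing history, so genes with on or off states were examined. With a floor of 3 counts over the 6 libraries of a side and at least 1 CPM in both groups of the other side, 0 genes were absent from wild type and 1 was absent from the degron lines. That gene, ENSG00000269547 on chr19:38915404-38949855, had 0 counts in all 6 degron libraries and 204 in wild type. It also had 0 counts in DMSO replicate 1 and in actinomycin D replicate 3, so that estimated sharing of reads among overlapping genes cannot be told apart from a real loss.

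LGR5, the Wnt target and stem-cell receptor, had 0 counts in all 6 wild-type libraries. Against a floor of 3 counts over these 6 libraries (0.0269 CPM) it was at least 6.66-fold higher in the POLR1A line, on 11 counts in all. In the POLR2A line it stood at 18.8, 21.7 and 21.1 CPM, at least 763-fold higher than that floor. These bounds cover counting error only. CD44, a hyaluronan receptor and Wnt target, fell by 1.48 and 0.63 in the lines, and RNF43, a Wnt inhibitor, by 2.04 and 1.74 with a drug fall of 1.01. Of 16 Wnt targets tested, 9 were higher and 4 lower (all genes 34.6% and 26.4%). Their contrast median was 0.321, while medians against DMSO were 0.0785 in the POLR1A line, −0.368 in the POLR2A line and −0.339 with the drug. Against DMSO the POLR1A line had 6 higher and 5 lower, the POLR2A line 3 and 8, and the drug 6 and 8.

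Gene families prone to clonal or epigenetic variation were mixed. Of 28 HOX genes tested of 39, 10 were higher and 4 lower (all genes 34.6% and 26.4%), so the HOX share of higher genes was close to that of all genes. HOXB13, a posterior homeobox gene, was among those separated. It had 5.00, 5.16 and 2.86 CPM with DMSO, 4.91, 4.02 and 4.75 with the drug, 11.1, 10.8 and 13.1 in the POLR1A line and 7.17, 6.75 and 7.63 in the POLR2A line. The wild-type groups overlapped, and the POLR1A line was above the POLR2A line by 0.71 (SE 0.18). The HOX median of 0.22 was −0.21 with mitochondrial scaling. Of 35 clustered protocadherins tested of 54, 21 were higher, 1 lower and 4 separated, with medians of 2.95 in the POLR2A line and 0.45 in the POLR1A line. Members could pass the filter on low counts through 1 group where they are high, so these medians are a description.

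Zinc-finger genes, 384 tested of 478, had 227 higher and 72 lower (all genes 34.6% and 26.4%), with 23 and 5 separated (all genes 3.44% and 1.5%). Their medians against DMSO were −0.14 and −0.32 in the POLR1A and POLR2A lines and −1.22 with the drug, so the contrast's median of 0.49 again stands beside the drug's fall. Of 7 cancer-testis genes tested of 35, 3 were higher and 1 lower. Interferon-stimulated genes had 8 higher and 4 lower of 24, with IRF9, a subunit of the interferon response factor, separated. IRF9 had 7.42, 5.63 and 6.95 CPM with DMSO, 5.17, 6.77 and 6.44 with the drug, 14.7, 14.3 and 14.3 in the POLR1A line and 14.3, 18.0 and 16.5 in the POLR2A line, with both lines overlapping. Imprinted genes had 5 higher and 6 lower of 17 and none separated.

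By gene class, 5.71% of lincRNAs were separated higher beside 3.40% of protein-coding genes, and 0.974% and 2.04% were separated lower. The medians of lincRNAs were 0.00 in the POLR1A line and 1.26 in the POLR2A line, beside −0.39 with the drug. A gene needed enough counts in only 3 libraries to be tested, so it could enter through 1 group where it is high. The filter left 20394 genes without the POLR2A group and 22759 to 23584 without another group. Shares and medians by class rest on genes chosen this way and are a description. Well-expressed protein-coding genes separated lower had a median gene span of 60.0 kb, against 28.5 kb for the separated higher and 34.8 kb for all 9985 such genes. The lines went opposite ways with span. From the shortest to the longest of 5 equal groups, medians against DMSO went from −0.10 to 0.14 in the POLR1A line. In the POLR2A line they went from −0.13 to −0.43. By chromosome, medians of the contrast ran from −0.21 on chromosome 16 to −0.07 on chromosome 6. Of 187 windows of 10 Mb, 1 had a median beyond 0.5 in size, at 20 to 30 Mb of chromosome 6. Its median was 1.25 with 63 genes, beside medians of −0.10, −1.27 and −2.32 in the POLR1A line, the POLR2A line and with the drug. The next highest window was at 0.26.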

How the data were processed

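Total RNA, depleted of ribosomal RNA, was sequenced in 12 libraries with an Illumina stranded kit, per the labels' protocols. The authors deposited estimated counts per gene, which need not be whole. Per the submitters' processing notes, the tools included RSEM 1.3.3, STAR and HTSeq 2.0.2, and the builds were GRCh38 and hg38. The sources used here give neither annotation release nor strand setting, so overlapping, antisense and near-identical genes are uncertain.

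Counts of 63241 genes were rounded and filtered with filterByExpr, which left 23593. They were scaled by TMM and fitted with edgeR 4.0.16 in R 4.3.3 (glmQLFit and glmQLFTest, a mean per group, 8 residual degrees of freedom). Comparisons were degron minus wild-type, drug minus DMSO, line minus line, and each line against each wild-type group. Adjusted p-values are Benjamini-Hochberg over all genes tested. Standard errors (SE) of log2 fold changes come from the fit, and comparisons that share a group are not independent. The step was tested on simulated data. Replicates of each group differed beyond sampling noise. Depth sets the precision: values under 1 CPM rest on few counts.

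Genes are named by rank of the contrast among separated, well-expressed genes that the drug did not move the same way: 10 protein-coding and 4 non-coding per direction, and 4 per direction that the drug moved oppositely. The level limit is edgeR's average log2 CPM over all 12 libraries, which comes from the mean level and not from the mean of logs. Gene lists add up to 3 separated members each, and other members are given as examples. The 10 per direction without a drug call were added after the values were seen, as was the 2-fold rule against every group. The members and lists were chosen with earlier results of these data known. Coordinates and classes are from GENCODE 29, and promoters from RefSeq GRCh38.p14. NRP1, CYP1B1 and SLC29A2 had no entry in the promoter table. Alternatives were other scaling, filters, DESeq2 1.42.0, a replicate block, a design of 6 against 6 libraries, and leaving out each library and each group. Some results are not reported here.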

Additional observations from a re-analysis of the deposited data

Results flagged for a closer look

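Of 43 genes named by rank, 37 differed between the POLR1A and POLR2A lines (edgeR, adjusted p under 0.05; 62.2% of all genes tested did), and 17 of them by 2-fold or more. These 17 are given with the POLR1A line minus POLR2A line log2 fold change.

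The POLR2A line was higher in 9. Among genes with a higher average in the degron lines these were TEX14 (−3.45), ADAMTSL4 (−3.05), LVRN (−2.70), MIR31HG (−2.06), MIRLET7IHG (−2.04) and COL7A1 (−1.65). Among genes with a lower average they were GALNT3 (−3.98), MAL2 (−3.19) and SYK (−2.45), which were lowest in the POLR1A line.

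The POLR1A line was higher in 8, all of them genes with a lower average that were lowest in the POLR2A line: CEMIP (3.00), LINC02331 (1.92), PCDH7 (1.73), KITLG (1.64), PRF1 (1.38), BRSK2 (1.3), CNTNAP3 (1.19) and CBFA2T3 (1.04). CNTNAP3 has near-identical copies, so its counts are uncertain.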

How the results depend on the processing

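Counts that moved by more than 1.5 times are given here, except those of the 2-fold rule, given with it. With library totals, separated lower genes numbered 229, and 177 without a drug change in the same direction. With mitochondrial scaling, 4113 genes were higher and 10028 lower, 459 and 727 separated, and 402 and 703 of these without such a drug change. With no filter on low counts, 437 lower genes were separated without such a drug change. The 6-against-6 design gave 3512 higher and 2219 lower. Without the DMSO group 3807 and 980 genes were separated, without the actinomycin D group 969 were separated lower. Without the POLR1A group 5195 and 1171 were separated, 4920 and 786 without a drug change, and without the POLR2A group 1251 and 883, then 1136 and 761. A group left out removes a condition for separation. Leaving out 1 library gave 7376 to 8469 higher, 6109 to 6561 lower, 808 to 1130 and 375 to 434 separated, 756 to 1069 and 298 to 355 without a drug change, 11617 to 12662 for the drug and 13993 to 15980 between lines.

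Contrasts that changed sign are listed only where the main fit or the alternative called them. With library totals they were PPP6R1 (0.10) and ARNT (0.0106). With mitochondrial scaling they were TNNT1 (−0.33), MYC (−0.24) and TMEM86B (−0.0222). MYC (−1.76) changed sign with 6 against 6, and TNNT1 (−0.41) without DMSO. Without actinomycin D they were PPP6R1 (0.12), MYC (−2.82) and ARNT (0.23). Without the POLR1A group they were AHRR (−0.37) and MYC (−0.19), and without the POLR2A group AHR (0.0341), ARNT (0.57), BRSK1 (0.44) and TMEM86B (−0.15). The cause was not tested. Replicate numbers did not pair the libraries (same-number correlations −0.16 to 0.12), and a fit with the replicate block called 13967 genes and changed no call among the 91 named. DESeq2 changed none of the 91, and the filter of 10 counts none of the 90 that it kept.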
